A study of Mus musculus with 12 samples.

Results

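Inflammasomes are protein platforms that form in the cytosol when a sensor such as NLRP3, AIM2 or NLRC4 meets a microbial or danger signal. The sensor gathers the adaptor ASC, encoded by Pycard, and caspase 1, which matures interleukin 1 beta and interleukin 18 and cuts gasdermin D, whose fragment opens pores in the plasma membrane. Caspase 4 of the mouse, also called caspase 11, binds cytosolic lipopolysaccharide and cuts gasdermin D without a sensor of that kind. Necroptosis is a separate lytic death, in which the kinase RIPK3 activates the pseudokinase MLKL, and caspase 8 holds it back. Macrophages, including those of the liver, are known for all of these pathways.

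The genes described here are Nlrp3, Nlrc4, Aim2, Pycard, Casp1, Casp4, Casp8, Gsdmd, Ripk3 and Mlkl, 10 genes chosen by symbol. The platform annotation gave 16 probes for 9 of them, out of 25697 probes on each bead array, and Nlrc4 was not analysed here. A probe was kept where its detection p, which sets it against negative control beads of the same array, was under 0.05 on at least 2 arrays. All 16 probes were kept, among 13678, and the kept probe with the highest mean stood for a gene, so that 9 of these genes were among the 10255 genes tested. The 9 tested genes therefore include genes that were near background in some groups.

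The cells were primary cultures of Kupffer cells, which are macrophages resident in the liver sinusoids, from male C57BL/6 mice aged 8 weeks, enriched on a density gradient after collagenase perfusion of the liver. They were left without a named treatment (M0), treated with LPS, the lipopolysaccharide of bacterial outer membranes, at 10 ng/ml (the M1 treatment of the labels), or given interleukin 4 (IL-4) at 20 ng/ml (the M2 treatment). Other cultures received DMSO alone (Veh), SR3335, known as a ROR-alpha inverse agonist, at a labelled 10 mM, or SR1078, known as a ROR agonist, at a labelled 5 mM. The unit of those concentrations is in doubt and cannot be checked from the values. Treatment lasted 24 h, but no time is stated for M0, so that differences from M0 can include culture time. Each of the 6 groups had 2 arrays. Whether these came from separate cultures or animals is not stated, and the p-values therefore measure only the spread between arrays, which may be technical.

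The arrays formed 2 sets with different background. A probe at the level of the negative control beads had a signal from 156 to 164 on the M0, LPS and IL-4 arrays and from 94.4 to 105 on the Veh, SR3335 and SR1078 arrays, so comparisons were made only within a set. On each array 11474 to 12623 probes were detected, and replicate arrays correlated across genes at r = 0.992 to 0.997. Of 16 Kupffer cell marker genes with a probe, 14 or 15 were detected on both arrays of every group. Cd5l was detected in no group, and Cd163 was detected on neither array of LPS, Veh, SR3335 or SR1078. Other cells may have been present, since 10 or 11 of 12 markers of sinusoidal endothelium were detected on both arrays of every group. Which cells these transcripts came from was not tested. In such bulk samples a change in the number of cells of a type and a change in RNA per cell cannot be told apart.

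Promoters are shown for the pair of genes that passed in the most comparisons, Mlkl with the strongest rise and Aim2 with the strongest fall. The 250 bases before the annotated start (RefSeq, build GRCm38.p6) lie at chr8:111338206-111338455 on the minus strand for Mlkl and at chr1:173420354-173420603 on the plus strand for Aim2. They read, 5′ to 3′ on the strand of the gene, as follows, in lower case throughout because none of the 5 motifs searched was found in either.
Mlkl: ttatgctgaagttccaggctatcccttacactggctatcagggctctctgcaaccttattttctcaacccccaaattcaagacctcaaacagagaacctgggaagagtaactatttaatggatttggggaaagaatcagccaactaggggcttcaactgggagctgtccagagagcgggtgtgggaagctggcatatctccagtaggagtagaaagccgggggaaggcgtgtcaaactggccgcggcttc
Aim2: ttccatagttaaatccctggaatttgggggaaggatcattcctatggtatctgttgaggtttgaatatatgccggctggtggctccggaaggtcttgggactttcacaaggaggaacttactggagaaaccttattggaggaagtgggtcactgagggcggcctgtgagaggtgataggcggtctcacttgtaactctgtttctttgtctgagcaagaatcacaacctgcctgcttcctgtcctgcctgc
The motifs, searched on both strands, were the kappa B consensus bound by NF-kB, the interferon-stimulated response element, the STAT element TTCNNNGAA, its STAT6 form with a longer spacer, and TAGGTCA, the core bound by ROR proteins. Hits of palindromic motifs on both strands are the same letters. The promoter table held 11 promoters of 9 of the 10 genes, Gsdmd being the gene without one. The kappa B consensus was found in both promoters of Casp4, which overlap, as GGGATTTCCC, and once in one of the 2 promoters of Nlrp3 as GGGAACCCCC. It occurred in 3.90% of 32851 promoters of the same length. The other Nlrp3 promoter held TTCCTTTGAA, a match to the STAT6 element, which occurred in 5.85% of promoters. The remaining motifs, present in 2.98% (interferon-stimulated response element), 7.02% (STAT element) and 2.23% (ROR core) of promoters, were in none of the 11. Such a match describes letters and does not show binding.

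The M1 treatment was examined by setting LPS against M0. Mlkl, the membrane-disrupting pseudokinase of necroptosis, rose 1.67-fold, Casp8 rose 1.24-fold, and Aim2, the sensor of cytosolic DNA, fell by 1.00 on the log2 scale. These were 3 of 9 genes past an adjusted p of 0.05, a share of 33.3%, where 30.3% of all genes passed, 13.5% as higher and 16.8% as lower. The genes were thus called about as often as genes at large. Their median log2 difference was 0.25, and that of all genes was -0.03. It was 0.24 with Nlrp3, undetected in M0, set there at the lowest detected signal.

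The Mlkl probe with the highest signal, ILMN_3006767, gave normalized log2 signals of 12.65 and 12.66 in M0, 13.44 and 13.34 with LPS, and 12.98 and 12.93 with IL-4. The 3 groups did not overlap, with M0 lowest and LPS highest. The log2 difference of LPS from M0 was 0.74 ± 0.075 (SE, n = 2 arrays per group, limma adjusted p = 0.000152). The SE pools the spread of a probe within all 6 groups, so it is the same in every comparison. The deposited signals before normalization were 6817 and 6895 in M0 and 10168 and 10299 with LPS. A second, dim probe of the gene, ILMN_2504397, also rose, by 0.56 ± 0.18 (adjusted p = 0.0433 over every kept probe). Mlkl passed under every alternative setting tried, with log2 differences of 0.60 to 0.79.

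Ripk3, the kinase that activates MLKL, had log2 signals of 9.42 and 9.35 in M0 and 9.64 and 9.65 with LPS. The LPS arrays lay above the M0 arrays, but the difference of 0.26 ± 0.10 did not pass (adjusted p = 0.0875, 95% interval 0.03 to 0.50). Casp8, the protease that drives extrinsic apoptosis and restrains necroptosis, read 11.78 and 11.72 in M0 and 12.05 and 12.08 with LPS. This was a rise of 0.31 ± 0.08 (adjusted p = 0.0209), and its other probe rose by 0.28 ± 0.08 (adjusted p = 0.031 over every kept probe). The call was lost on leaving out any 1 of the 4 arrays compared (adjusted p = 0.0537 to 0.101) and with median centring (0.20, adjusted p = 0.145).

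Gsdmd, the pore former of pyroptosis, was measured by 3 probes that did not give the same size of change. ILMN_2752790 read 8.16 and 8.25 in M0, 9.05 and 9.02 with LPS, and 8.30 and 8.41 with IL-4, so that LPS stood apart from both other groups. Its rise with LPS was 0.83 ± 0.09 (adjusted p = 0.000238 over every kept probe). ILMN_2748928 rose by 0.40 ± 0.09 (adjusted p = 0.0128). ILMN_2941324, which had the highest mean over all 12 arrays and so stood for the gene, gave 0.25 ± 0.16 (adjusted p = 0.277), with log2 signals of 11.40 and 11.36 in M0 and 11.52 and 11.74 with LPS. Its pooled SE includes the IL-4 arrays, with an SD of 0.37, beside 0.03 in M0 and 0.16 with LPS. All 3 had both LPS arrays above both M0 arrays, but 65.6% of all genes had groups that did not overlap in this comparison. In M0, LPS and IL-4 alone the probe with the highest mean was ILMN_2748928, and with it standing for the gene Gsdmd passed (adjusted p = 0.0105), a choice made after the values were seen.

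The inflammatory caspases gave small positive values. Casp1, which matures interleukin 1 beta, read 14.60 and 14.61 in M0 and 14.72 and 14.88 with LPS, a difference of 0.20 ± 0.07 (adjusted p = 0.0789). Casp4 read 12.41 and 12.29 in M0 and 12.56 and 12.62 with LPS, a difference of 0.24 ± 0.09 (adjusted p = 0.0629). For both genes the LPS arrays lay above the M0 arrays, and neither gene passed. With the authors' log2 values both passed, Casp1 at 0.21 (adjusted p = 0.0384) and Casp4 at 0.22 (adjusted p = 0.0427). The 2 other Casp4 probes gave 0.13 ± 0.16 and 0.30 ± 0.20 and did not pass.

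Of the sensors, Aim2 read 6.83 and 7.07 in M0, 6.12 and 5.78 with LPS, and 6.27 and 6.01 with IL-4. Both treated groups lay below M0, and with LPS Aim2 fell by 1.00 ± 0.15 (adjusted p = 0.00124). Aim2 was near background, with deposited signals of 253 and 271 in M0 and 200 and 194 with LPS, and one LPS array missed detection, where its detection p was 0.0526. Without background correction the fall was -0.43 (adjusted p = 0.000752), and with the authors' log2 values it was -0.36 (adjusted p = 0.0026), so the size depended on the background treatment while the call did not. Nlrp3, the sensor of membrane and ion disturbance, was not detected on either M0 array and on 1 LPS array only, where probe ILMN_1237471 had a detection p of 0.0376. That probe did not pass (adjusted p = 0.0837). With M0 set at the lowest detected signal of its arrays, LPS was 1.09-fold higher. This fold is not a lower bound, because the LPS mean includes the array that missed detection. The second Nlrp3 probe was detected on none of these arrays. Pycard, the adaptor, read 7.85 and 7.98 in M0 and 7.96 and 8.06 with LPS, which overlap, a difference of 0.10 ± 0.15 (adjusted p = 0.662) that turned to -0.04 with median centring.

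Cell markers also moved with LPS, where 30.3% of all genes passed. Of 16 Kupffer cell markers with a probe, 15 were tested, 3 rose and 8 fell, 73.3% called. Their summed linear level was 245272 to 253636 in M0, 182618 to 186969 with LPS and 242658 to 245937 with IL-4. Markers of other cells moved too. Of 10 T and NK cell markers with a probe, 6 were tested and 5 fell, and their summed linear level was 3832 to 4137 in M0, 2603 to 2609 with LPS and 2678 to 2912 with IL-4. Cd8a, Gzma, Gzmb and Ncr1 were undetected in all 3 groups. Of 11 neutrophil markers with a probe, 6 were tested, 4 rose and 1 fell, and the summed level was 2258 to 2262 in M0, 7493 to 8393 with LPS and 2409 to 2655 with IL-4. Mpo, Ngp, Cxcr2, Mmp8 and Retnlg were undetected in all 3 groups. Of 11 tested markers of sinusoidal endothelium 4 rose and 3 fell with LPS, with a summed level of 7152 to 7287 in M0 and 8649 to 9235 with LPS. The part of these markers' cells in the changes of Aim2 and Mlkl was not tested.

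**Figure D1:**
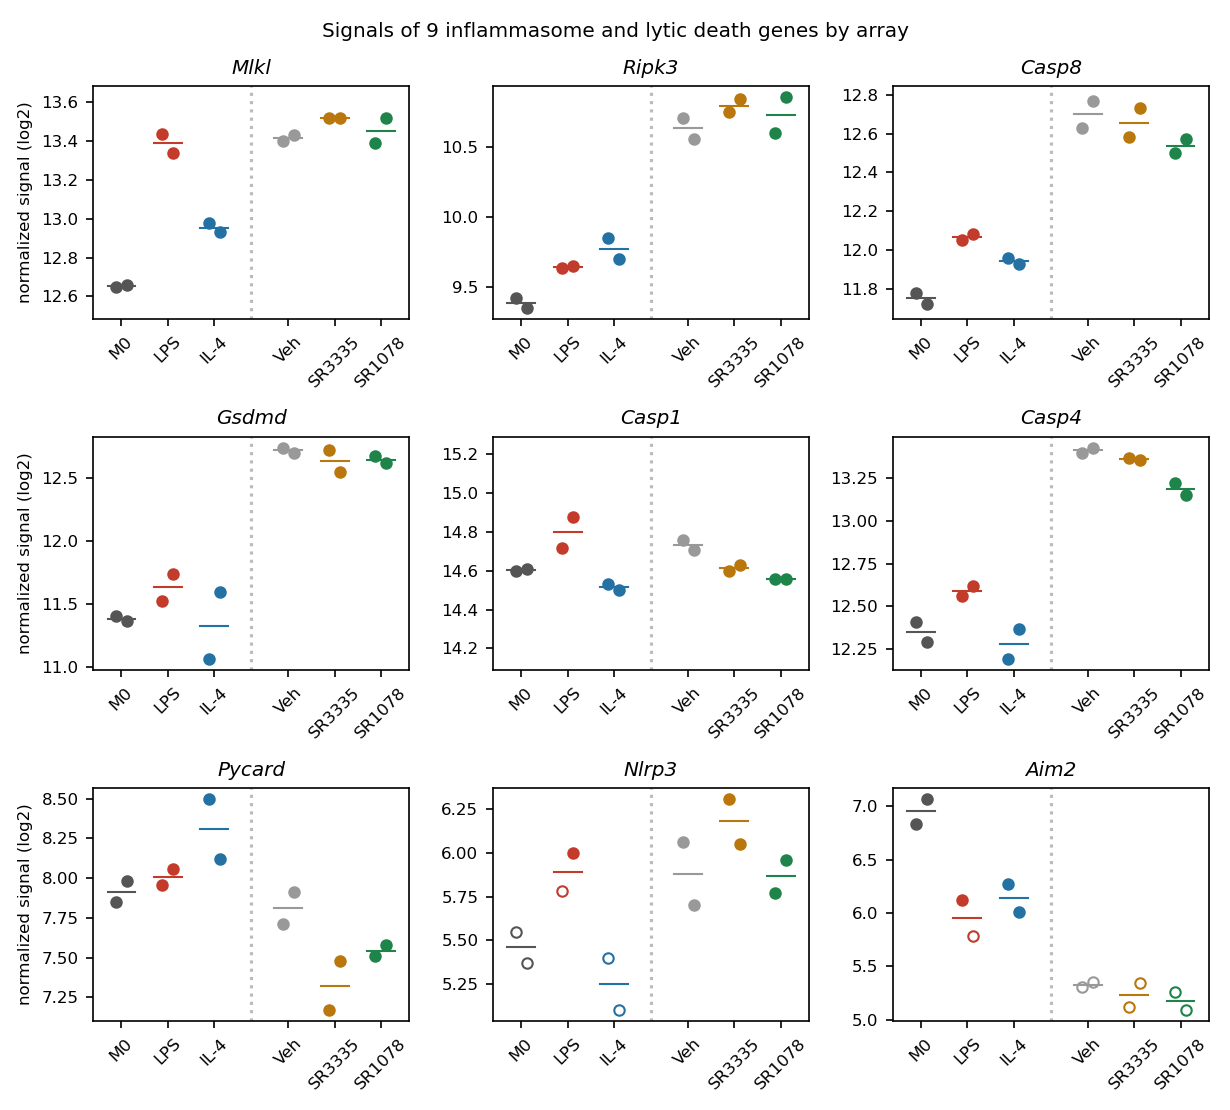
Normalized log2 signal (vertical axis) of the probe standing for each of 9 genes on each of the 12 arrays, by group (horizontal axis), with bars at group means and open points where the probe was not detected. The dotted line separates the 2 array sets, whose levels are not compared. Mlkl was lowest in M0 and highest with LPS, and Aim2 was highest in M0 and undetected in Veh, SR3335 and SR1078.

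The M2 treatment was examined by setting IL-4 against M0. Mlkl rose by 0.30 ± 0.075 (SE, n = 2 arrays per group, limma adjusted p = 0.0242) and Ripk3 by 0.39 ± 0.10 (adjusted p = 0.0309), so that both core necroptosis genes rose, while Aim2 fell by 0.81 ± 0.15 (adjusted p = 0.00712). These were 3 of 9 genes, or 33.3%, against 19.5% of all genes, of which 8.43% were higher and 11.1% lower. The median log2 difference was -0.06 for the 9 genes and 0.07 for the 8 without Nlrp3, which was undetected in both groups, beside -0.03 for all genes. This comparison shares its M0 arrays with that of LPS.

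Ripk3 read 9.42 and 9.35 in M0 and 9.85 and 9.70 with IL-4, without overlap, as did 56.8% of all genes in one direction or the other. The second Mlkl probe rose by 0.70 ± 0.18 (adjusted p = 0.0275 over every kept probe), and with log2 signals of 6.49 and 6.17 in M0 and 6.90 and 7.16 with IL-4 it did not overlap either. The calls of Mlkl and Ripk3 were both lost without M0 replicate 1 (adjusted p = 0.096 and 0.0834), M0 replicate 2 (0.0856 and 0.128) or IL-4 replicate 1 (0.0778 and 0.129). The Aim2 call was kept on leaving out any 1 array and lost with only the 2 groups compared (adjusted p = 0.08), and with the authors' log2 values the fall was -0.31 (adjusted p = 0.0119). With IL-4, 4 of 6 tested T and NK cell markers fell and none rose, 66.7% called where 19.5% of all genes passed. Of 10 monocyte and dendritic cell markers with a probe, 5 were tested, 3 rose and 1 fell, 80% called. The summed level of the 10 was 1021 to 1144 in M0 and 4231 to 6058 with IL-4. Ccr2, Cd209a, Clec9a, Flt3, Xcr1 and Zbtb46 were undetected in both. Of 11 tested markers of sinusoidal endothelium 5 rose and 1 fell (54.5% called), with a summed level of 7152 to 7287 in M0 and 10795 to 11571 with IL-4. Whether such markers rose within Kupffer cells or through more cells of their type was not tested. The part of either in the changes of Aim2, Mlkl and Ripk3 was not tested.

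Pycard read 8.50 and 8.12 with IL-4, above both M0 arrays, but the replicates differed and the difference of 0.39 ± 0.15 did not pass (adjusted p = 0.0984). Without IL-4 replicate 2 it passed at 0.58 (adjusted p = 0.0259). Casp8 gave 0.19 ± 0.08 (adjusted p = 0.136), Casp1 -0.09 ± 0.07 (0.439) and Casp4 -0.07 ± 0.09 (0.583). The Gsdmd probes gave -0.15, 0.15 and -0.06, and none passed. For the probe standing for Gsdmd the IL-4 replicates read 11.06 and 11.59, on either side of M0. Nlrp3 was undetected on both arrays of both groups and has no fold.

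LPS was set against IL-4 to compare the 2 polarizing treatments directly. Mlkl was 1.35-fold higher with LPS (log2 0.44 ± 0.075, n = 2 arrays per group, limma adjusted p = 0.00213), although its dim probe gave -0.14 ± 0.18 and did not pass (adjusted p = 0.585 over every kept probe). Both inflammatory caspases were also higher with LPS, Casp1 at 0.29 ± 0.07 (adjusted p = 0.0167) and Casp4 at 0.31 ± 0.09 (adjusted p = 0.0195). Nlrp3 passed as higher (adjusted p = 0.0159), although neither IL-4 array detected it. With IL-4 set at the lowest detected signal of its arrays, LPS was 1.13-fold higher. This fold is not a lower bound, because 1 LPS array did not detect Nlrp3 either. Of the arrays of this set 1 detected it, so the gene was not tested with the set filtered on its own, its second probe was undetected in both groups, and with the authors' values it did not pass (0.18, adjusted p = 0.102). In all 4 of 9 genes (44.4%) were higher and none lower, where 36.5% of all genes passed and 18% were higher.

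Without LPS replicate 2 only Mlkl remained past the threshold among the 9 genes, with Casp1 at 0.21 (adjusted p = 0.113) and Casp4 at 0.29 (0.0891), and Nlrp3 was then undetected on every array compared. Casp4 was also lost without LPS replicate 1 (adjusted p = 0.0514) or IL-4 replicate 1 (0.0875), and Nlrp3 without IL-4 replicate 2 (0.0811). The other kept Casp4 probes gave 0.03 ± 0.16 (adjusted p = 0.916) and 0.05 ± 0.20 (adjusted p = 0.865 over every kept probe), with overlapping arrays. A pair of Gsdmd probes was higher with LPS, by 0.56 ± 0.09 (adjusted p = 0.00218) and 0.68 ± 0.09 (adjusted p = 0.000524 over every kept probe), while the probe standing for the gene gave 0.30 ± 0.16 (adjusted p = 0.168). Without IL-4 replicate 2 that probe passed too (0.57, adjusted p = 0.00735). Pycard read -0.29 ± 0.15 (adjusted p = 0.159), and it passed as lower with LPS without IL-4 replicate 2 (-0.48, adjusted p = 0.0368). Ripk3 (-0.13 ± 0.10), Casp8 (0.12 ± 0.08) and Aim2 (-0.19 ± 0.15) did not pass.

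By level, the Mlkl probe ILMN_3006767 was in the order M0, IL-4, LPS, and every neighbouring pair differed by the test. Its call for IL-4 against M0 was lost in 8 alternative settings. The dim Mlkl probe ran M0, LPS, IL-4, and LPS and IL-4 did not differ by the test. Ripk3 was in the order M0, LPS, IL-4, where M0 and LPS, and LPS and IL-4, did not differ by the test. Casp8 ran M0, IL-4, LPS, with no neighbouring pair past the threshold. Casp1 and the Casp4 probe ILMN_2811737 ran IL-4, M0, LPS, with only the ends past the threshold, while the other Casp4 probes ran M0, IL-4, LPS with no pair past it. Aim2 ran LPS, IL-4, M0, and IL-4 and LPS did not differ by the test.

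**Figure D2:**
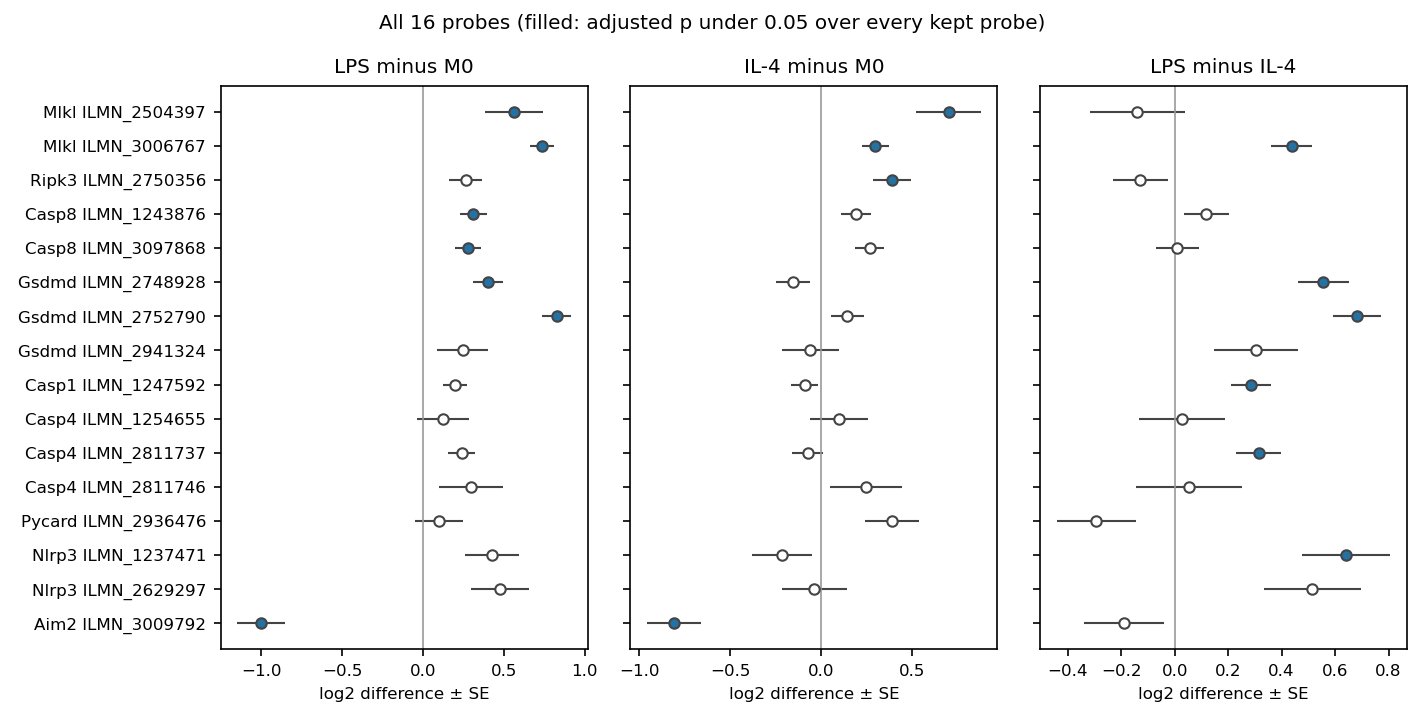
Log2 difference with its standard error (horizontal axis) for each of the 16 probes (vertical axis, gene and probe identifier) in the 3 comparisons of M0, LPS and IL-4. Filled points passed over every kept probe. The Gsdmd probes ranged from 0.25 to 0.83 with LPS, and the Mlkl probes both rose with LPS and with IL-4 but lay on either side of 0 in LPS minus IL-4.

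SR3335 and SR1078 were compared with Veh to ask what ROR ligands change. None of the 9 genes passed in either comparison, where 4.63% of all genes passed with SR3335 (475 genes) and 1.37% with SR1078 (140 genes) by limma. At an unadjusted p under 0.05 there was 1 of these genes with SR3335, Pycard, and there were 2 with SR1078, Casp1 and Casp4. The concentrations differed between the compounds as labelled. Of 15 tested Kupffer cell markers 2 were lower with SR3335 and none higher (13.3% called against 4.63%), and none passed with SR1078. The summed level of that list was 152468 to 155163 in Veh, 133098 to 136516 with SR3335 and 145806 to 150450 with SR1078. The hepatocyte sum was 9337 to 10114 in Veh and 11788 to 14897 with SR3335, where none of 7 tested markers passed. The part of these markers' cells was not tested.

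With SR3335, Pycard read 7.17 and 7.48 against 7.71 and 7.91 in Veh, below both Veh arrays, a difference of -0.48 ± 0.15 (n = 2 arrays per group, adjusted p = 0.115, 95% interval -0.82 to -0.14). With array weights it passed (adjusted p = 0.034). The dim Mlkl probe gave 0.46 ± 0.18 (adjusted p = 0.228 over every kept probe) and the bright one 0.11 ± 0.075 (adjusted p = 0.511), both with SR3335 above Veh, where 54.9% of all genes did not overlap. The Mlkl arrays of the bright probe read 13.40 and 13.43 in Veh, 13.52 and 13.52 with SR3335, and 13.39 and 13.52 with SR1078.

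With SR1078, Casp4 read 13.22 and 13.15 against 13.40 and 13.43 in Veh, a difference of -0.23 ± 0.09 (adjusted p = 0.236, 95% interval -0.42 to -0.04). Casp1 read 14.56 and 14.56 against 14.76 and 14.71, a difference of -0.18 ± 0.07 (adjusted p = 0.315, 95% interval -0.35 to -0.01). In both genes the SR1078 arrays lay below the Veh arrays, where 53.5% of all genes did not overlap. The Gsdmd probe ILMN_2752790 read 9.02 and 8.93 with SR1078 and 9.4 and 9.26 in Veh, at -0.36 ± 0.09 (adjusted p = 0.121 over every kept probe). Pycard gave -0.26 ± 0.15 (adjusted p = 0.458). Over the 8 genes detected in these groups, Aim2 being left out, the median log2 difference was -0.12 with SR1078 and -0.05 with SR3335, beside -0.00 and -0.01 for all genes.

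Nlrp3 was detected on all 6 arrays of this set by both probes. ILMN_1237471, standing for the gene, read 6.06 and 5.70 in Veh, 6.31 and 6.05 with SR3335 and 5.77 and 5.96 with SR1078. The Veh arrays overlapped both compounds, and SR3335 minus SR1078 was 0.32 ± 0.17, which did not pass (adjusted p = 0.356). Differences of this probe from Veh were 0.30 ± 0.17 with SR3335 and -0.02 ± 0.17 with SR1078, and neither passed. The second probe, ILMN_2629297, gave 0.08 ± 0.18 for SR3335 minus SR1078 (adjusted p = 0.884 over every kept probe), with overlapping arrays. From Veh it differed by 0.13 ± 0.18 with SR3335 and 0.05 ± 0.18 with SR1078, without a pass. Aim2 was detected on none of the 6 arrays and has no fold. Ripk3 gave 0.16 ± 0.10 with SR3335 and 0.09 ± 0.10 with SR1078, and Casp8 -0.05 ± 0.08 and -0.17 ± 0.08, without a pass. SR3335 set directly against SR1078 gave no pass among the 9 genes either, and 0 of them had an unadjusted p under 0.05 by limma, where 4.56% of all genes passed. The intervals of that difference were -0.01 to 0.37 for Casp4, -0.11 to 0.23 for Casp1 and -0.55 to 0.12 for Pycard.

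**Figure D3:**
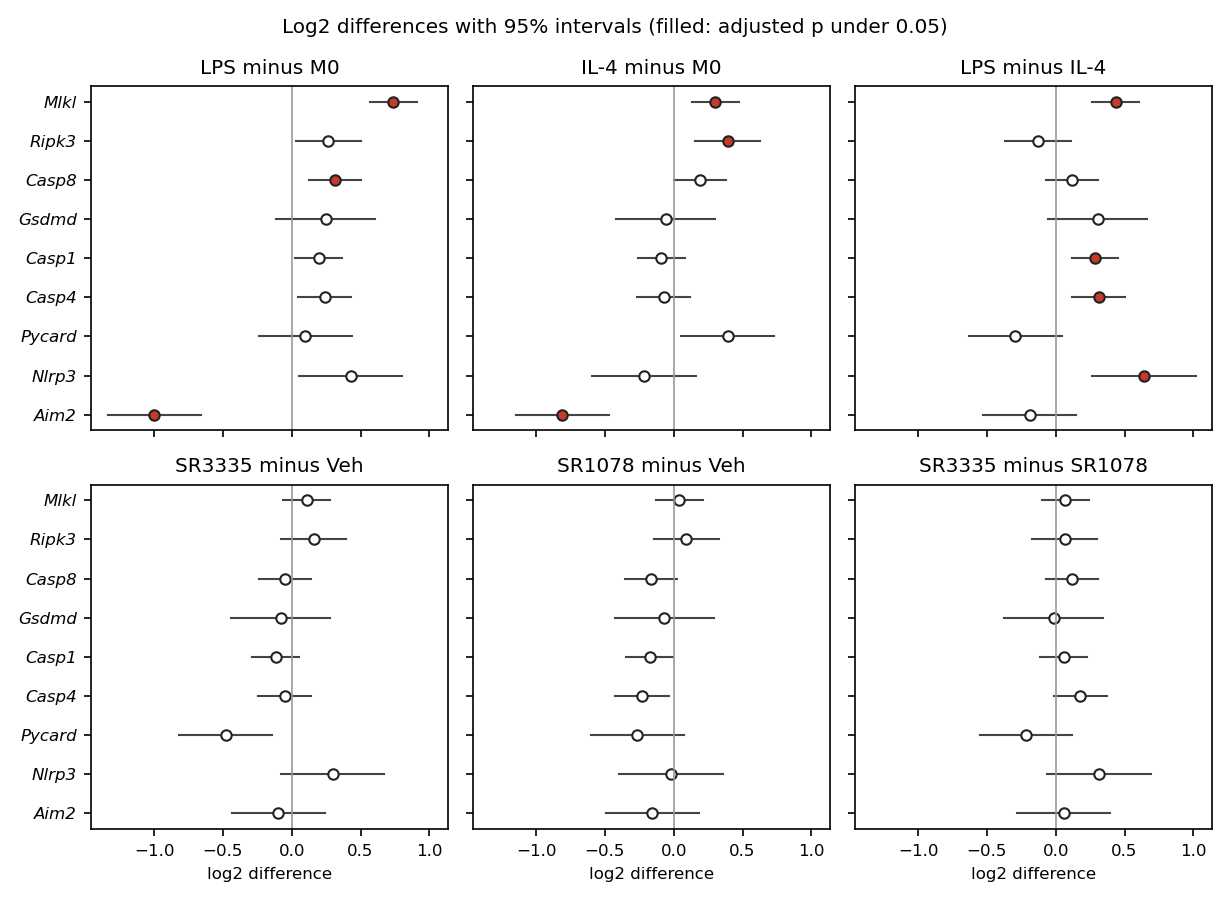
Log2 difference (horizontal axis) with its 95% interval for 9 genes (vertical axis) in 6 comparisons, filled where the adjusted p was under 0.05. Passing genes appear in the 3 comparisons of M0, LPS and IL-4, and none in the 3 of Veh, SR3335 and SR1078.

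Among other sensors and cofactors of inflammasomes, 20 of 34 listed genes were tested, and with LPS 7 rose and 2 fell, or 45% called against 30.3% of all genes (median log2 difference 0.25, against -0.03). Pstpip1, a cytoskeletal partner of pyrin, rose by 1.18 ± 0.11 and Ifi205, of the interferon-inducible family that includes AIM2, by 1.13 ± 0.11. Nlrc3, a dampener of innate signalling, fell by 1.03 ± 0.09 and the channel gene Panx1 by 0.55 ± 0.14. With IL-4 2 rose and 3 fell (25% called against 19.5% of all genes), among them Gbp5, a guanylate-binding protein linked to NLRP3 activation, at -0.70 ± 0.20, and LPS minus IL-4 had 10 higher and 2 lower (60% against 36.5%). There Gbp5 stood at 1.68 ± 0.20 and P2rx7, the ATP-gated channel that triggers NLRP3, at 0.98 ± 0.11, while the 3 other kept P2rx7 probes gave 0.31, 0.47 and 0.87. The Gbp5 fall with IL-4 was lost in 12 alternative settings. Txnip, which binds thioredoxin, rose by 0.59 ± 0.09 with SR1078, a call lost in 5 alternative settings. It was the one gene of this list to pass there (5% called against 1.37% of all genes), and none passed with SR3335. In SR3335 minus SR1078 only Ifi205 passed, at 0.46 ± 0.11 (5% called against 4.56%), a call lost in 12 alternative settings.

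Of 22 listed products of inflammasomes and genes of membrane rupture, 15 were tested, and 4 rose and 1 fell with LPS, 33.3% called against 30.3% of all genes. The cytokine genes Il1a and Il18 rose by 1.84 ± 0.11 and 1.10 ± 0.13, and Il18bp, which encodes the decoy of interleukin 18, fell by 0.39 ± 0.09. With IL-4 Il1b fell by 0.96 ± 0.07 and Il18 by 0.77 ± 0.13, and the caspase gene Casp6 rose by 0.74 ± 0.08 (0.27 by its other kept probe), with 1 higher and 2 lower in all, 20% called against 19.5% of all genes. LPS minus IL-4 had 4 higher and 3 lower (46.7% against 36.5%), with Il1b at 1.88 ± 0.07. Casp6 also rose with SR3335, by 0.55 ± 0.08 (adjusted p = 0.00937), a call lost in 4 alternative settings. It was the one gene of this list to pass there (6.67% called against 4.63% of all genes), and none passed with SR1078. SR3335 minus SR1078 had 3 higher and none lower (20% against 4.56%). The largest were Serpinb1a at 0.89 ± 0.19 and Casp6 at 0.56 ± 0.08, calls lost in 8 and 4 alternative settings.

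Of 29 listed genes of the death receptor and necroptosis pathway, 26 were tested. With LPS 5 rose and none fell, led by Tnfaip3, the ubiquitin-editing inhibitor A20, at 1.11 ± 0.08, and the TNF receptor gene Tnfrsf1b at 1.05 ± 0.20. With IL-4 none rose and 3 fell, among them the adaptor gene Traf2 at -0.75 ± 0.10 and the deubiquitinase gene Cyld at -0.40 ± 0.11, which was 11.5% called against 19.5% of all genes. The Cyld call was lost in 9 alternative settings. LPS minus IL-4 had 9 higher and 2 lower (42.3% against 36.5%). With SR3335 Tnfaip3 rose by 0.39 ± 0.08 and Traf2 fell by 0.43 ± 0.10 (7.69% called against 4.63% of all genes), and with SR1078 none passed. SR3335 minus SR1078 had 3 higher and none lower (11.5% against 4.56%). The largest were Tnfrsf1b at 0.86 ± 0.20 and Fas at 0.48 ± 0.11, calls lost in 12 and 11 alternative settings. With SR3335 the Traf2 call was lost in 20 alternative settings and the Tnfaip3 call in 8. The called share with LPS, 19.2%, was below the 30.3% of all genes.

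Of 18 listed genes of mitochondrial apoptosis, 16 were tested, and with LPS none rose and 6 fell, 37.5% called against 30.3% of all genes. Bbc3, which encodes the death-promoting protein PUMA, fell by 1.28 ± 0.12 and Bcl2, which encodes a death-blocking protein, by 0.88 ± 0.13, so that the falls included both kinds. Other kept probes gave -0.40 and -0.78 for Bbc3 and -0.07 to -0.92 for Bcl2. With IL-4 2 rose and 2 fell (25% called against 19.5%), Bcl2a1d at 0.67 ± 0.13, Bcl2l1 at 0.58 ± 0.17, Bmf at -1.33 ± 0.21 and Apaf1 at -0.48 ± 0.08 (-0.14 by its other kept probe). Bcl2a1d belongs to a family of near-identical copies, which its probe may not separate. The Bcl2l1 call was lost in 13 alternative settings. LPS minus IL-4 had 3 higher and 4 lower (43.8% against 36.5%). With SR3335 only Bik passed, higher by 0.63 ± 0.15 (6.25% called against 4.63%), a call lost in 13 alternative settings. None passed with SR1078 or in SR3335 minus SR1078.

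**Figure D4:**
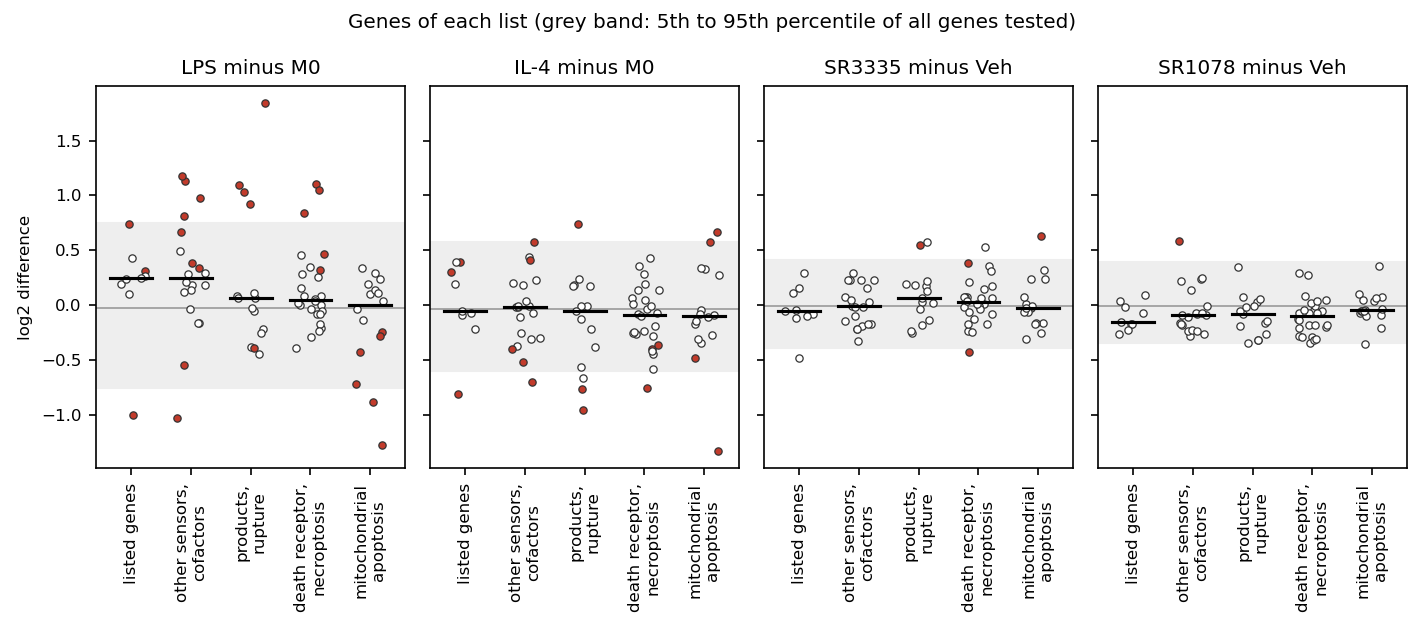
Log2 difference (vertical axis) of every tested gene of each list (horizontal axis) in 4 comparisons, with bars at list medians, filled points at an adjusted p under 0.05 and a grey band from the 5th to the 95th percentile of all genes tested. In LPS minus M0 the other sensors had 7 higher genes and mitochondrial apoptosis genes had 6 lower and none higher, while few points are filled for the compounds.

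The genes most like Mlkl in pattern were Scarf1, Il6 and Spsb1 (Pearson r = 0.978 each), Oxsr1 (0.975) and Gstt4 (0.973), over the 12 arrays after each set's mean was subtracted. For Aim2 they were Bcas3 (0.952), Polr3b (0.946), Dpm1 (0.941), Ube3b (0.935) and Pde6g (0.933), but Aim2 was detected on 5 of the 12 arrays, so these values rest in part on background. These values are descriptions, since the arrays of a group share treatment and set and the closest genes were picked from 9426 with a symbol.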

How the data were processed

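Illumina mouse bead arrays of 12 Kupffer cell samples were analysed, 2 in each of 6 groups. The deposited signal intensity of each probe was summarised with GenomeStudio 2011.1, per the submitters' processing notes, and was not normalized, per the file headers. The deposited detection p-value sets each probe against negative control beads, per the file headers. The authors' deposited log2 values, used as an alternative, were matched by quantile normalization of the signals within each array set to within 0.02 for 25667 of 25697 probes, so their scale is log2 without background correction. A genome build is not given for the arrays in the sources used here, while the promoter coordinates are of build GRCm38.p6.

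Signals were corrected with neqc of limma 3.58.1 (R 4.3.3), which infers the negative controls from the detection p-values (offset 16), then quantile normalized over the 12 arrays and log2-transformed. The filter on dim probes required detection at p under 0.05 on 2 or more arrays. One mean per group was fitted with lmFit and eBayes (6 residual degrees of freedom, median standard error 0.123), and p-values were adjusted by Benjamini-Hochberg over 10255 genes, or over 13678 kept probes where stated. Precision is limited by the number of arrays. The variance of a gene was pooled over both array sets. Across genes the replicate SD was 0.19 to 0.24 in M0, LPS and IL-4 and 0.14 to 0.15 in Veh, SR3335 and SR1078. The pooled SE does not follow that difference, so it may be too small in the former set and too large in the latter. Of the probes, 1719 had no gene symbol in the platform annotation.

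The listed genes and the pathway and marker lists were chosen with earlier results of these data known. All listed genes are named with every probe, and of each other list at most the 2 largest rises and the 2 largest falls past the threshold in a comparison. The main fit did not pair arrays by replicate number. Same-numbered deviations correlated at -0.04 to 0.10 over 15 pairs of groups, so no strong shared effect was seen. With 2 arrays a group this cannot show whether same-numbered arrays shared an animal or culture. The fit was tested on simulated data. Alternatives were other background corrections, median centring, other filters, every probe, other variance models, only the groups or the array set compared, a replicate block, the authors' values and leaving out each array.

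Of the other marker lists, monocyte and dendritic cell markers had 3 higher and 1 lower of 5 tested with IL-4 (80% called against 19.5% of all genes). With LPS none was higher and 2 were lower (40% against 30.3%). Hepatocyte markers had 1 higher of 7 with LPS (14.3% called), stellate cell markers 2 higher of 6 (33.3%) and B cell markers 1 lower of 3 (33.3%). These shares were near or below the 30.3% of all genes. Kupffer cell markers had 3 higher and 8 lower of 15 tested with LPS (73.3% called against 30.3% of all genes). With IL-4 they had 4 higher and 4 lower (53.3% against 19.5%).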

Additional observations from a re-analysis of the deposited data

How the results depend on the processing

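The rise of Mlkl and the fall of Aim2 with LPS passed under all 25 alternatives. Other calls among the listed genes were lost under at least 1, and with 2 arrays a group the counts moved widely. Median centring shifted the median of all genes to -0.13 (LPS minus M0), -0.07 (IL-4 minus M0) and -0.06 (LPS minus IL-4), and the share of calls that were higher from 44.4% to 26.5%, from 43.2% to 32.2% and from 49.5% to 37.6%. In SR3335 minus SR1078 that share went from 45.7% to 33.3%. Dim genes (Aim2, Nlrp3) are limited by signal over background. The causes were not tested.

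Listed genes past the threshold with LPS against M0 numbered 5 without background correction, 5 with the authors' log2 values and 6 with a variance trend, and 2 to 4 on leaving out an array. With IL-4 against M0 they were 1 without a filter, 1 with array weights, 0 with only the 2 groups and 1 with each array set on its own, and 1 to 4 on leaving out an array. In LPS minus IL-4 they were 1 with array weights, 0 with only the 2 groups and 1 with each set on its own, and 1 to 5 on leaving out an array. SR3335 against Veh gave 1 with array weights, and leaving out an array gave 0 in the 3 compound comparisons.

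These counts of listed genes are not set against the share of all genes called in the same setting. They do not show that listed genes were called more often than genes at large. Of all genes, LPS against M0 called 3107 in the main fit and 2059 with each set on its own. IL-4 against M0 called 978 with array weights, 227 with only the 2 groups and 801 with each set on its own, and LPS minus IL-4 called 1611 with only the 2 groups. SR3335 against Veh called 740 without background correction, 948 with the authors' values, 307 without a filter, 730 with a variance trend, 1139 with array weights and 264 with only the 2 groups. SR1078 against Veh called 392, 519, 80, 360, 620 and 20 under the same settings, 240 with normexp by maximum likelihood and 232 with the stricter filter. SR3335 minus SR1078 called 751, 920, 300, 718, 1060 and 296 under those settings and 717 with each set on its own. With the replicate number as a block, SR1078 against Veh called 91 genes. The block changed no call of a listed gene. On leaving out an array the counts were 2133 to 3590 (LPS minus M0), 1047 to 2651 (IL-4 minus M0), 2817 to 3751 (LPS minus IL-4), 77 to 675 (SR3335 minus Veh), 5 to 263 (SR1078 minus Veh) and 62 to 674 (SR3335 minus SR1078).

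Some differences that did not pass turned sign. With median centring Pycard was -0.0351 (LPS minus M0), Nlrp3 0.0193 and Mlkl -0.0429 (SR1078 minus Veh) and Gsdmd 0.0363 (SR3335 minus SR1078), and Gsdmd was 0.17 there with the probe chosen after the values were seen. On leaving out an array the ranges were -0.165 to 0.0187 for Casp4 and -0.322 to 0.209 for Gsdmd (IL-4 minus M0). They were -0.12 to 0.0243 for Casp8 and -0.168 to 0.007 for Gsdmd (SR3335 minus Veh). They were -0.198 to 0.16 for Nlrp3, -0.0378 to 0.221 for Ripk3 and -0.0256 to 0.105 for Mlkl (SR1078 minus Veh), and -0.1 to 0.0745 for Gsdmd and -0.0627 to 0.196 for Ripk3 (SR3335 minus SR1078). Aim2 was undetected in these groups, so that its ranges, -0.204 to 0.0103 (SR3335 minus Veh) and -0.0485 to 0.164 (SR3335 minus SR1078), are differences of background with no direction.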
